A study of Homo sapiens with 2 samples.

Results

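The KBTBD genes and ENC1 encode Kelch proteins, and their mRNA was followed here in C4-2 cells given the microRNA miR-99a. The members were the 8 genes KBTBD2, KBTBD3, KBTBD4, KBTBD6, KBTBD7, KBTBD8, KBTBD11 and ENC1, found as every probe set, meaning a group of array probes for a single transcript target, that the platform annotation gives to exactly 1 of them. That came to 15 of the 41091 probe sets with 1 gene name, and to 8 of 19775 named genes. The members were picked because earlier results of the same arrays showed some of them far from the control, so their differences are a description and carry no test.

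C4-2 is a human prostate cancer line derived from LNCaP, grown in RPMI medium with serum. One group was transfected with miR-99a and the other with si-GL2, a small interfering RNA that served as the control, and both were harvested 48 h later after the same lipid transfection. Each group holds 1 array, 2 arrays in all, so no value below has a replicate error or a p-value. In bulk RNA, fewer cells of a type and less RNA per cell cannot be told apart.

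Kelch proteins of this kind join a BTB domain, which binds the scaffold CUL3, to a Kelch propeller, which holds a substrate. Together with CUL3 and the RING protein RBX1 they form ubiquitin ligases, and the Kelch protein decides what is marked. A microRNA works at another level: carried by an Argonaute protein, it pairs through its seed with sites in mRNA and lowers the stability or translation of the message.

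The mature miR-99a-5p, the arm for which the microRNA is best known, is shown because its seed is what would pair with a message. Labels give only the name miR-99a. Bases 2 to 8, the seed, are in capitals, and the sequences are those of RefSeq on GRCh38.p14, written 5′ to 3′.
hsa-miR-99a-5p: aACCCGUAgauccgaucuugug
hsa-miR-100-5p: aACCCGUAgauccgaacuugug
hsa-miR-99b-5p: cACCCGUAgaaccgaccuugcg
These 3 are all the mature human microRNAs in that table with this seed. The mature sequences lie at chr21:16539101-16539122 on the plus strand for miR-99a-5p, chr11:122152275-122152296 on the minus strand for miR-100-5p and chr19:51692618-51692639 on the plus strand for miR-99b-5p. Each is 22 bases long. miR-100-5p differs from miR-99a-5p at 1 base and miR-99b-5p at 4 bases, none of them in the seed. Messages of the KBTBD genes and ENC1 were not searched for seed matches, since no transcript sequences were used here.

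The arrays were alike, with a Pearson r of 0.988 across 54675 probe sets on the scale log2(signal + 16), and array medians of 47.8 in miR-99a cells and 47.4 in si-GL2 cells. Every difference given is the miR-99a value minus the si-GL2 value in these log2 units, and it understates the change of dim probe sets. A probe set counts as expressed when its mean on that scale reaches the median of all probe sets, a signal of 47.2, and 12218 genes were expressed by their brightest probe set. That limit is relative and is no detection call. Genes or probe sets are called lower or higher at a 1.5-fold difference, or 0.585 in log2 units, which is a rule of size. Over 5842 genes with at least 2 expressed probe sets, the brightest and the second brightest disagreed with an SD of 0.18 per probe set, a measure of spread within the arrays and not between cultures. Of the luminal prostate markers, 6 of 8 were analysed and all were expressed. KLK2, KLK3 and TMPRSS2 were at -0.20, -0.13 and -0.07, and FOLH1, KRT8 and KRT18 at 0.27, 0.31 and 0.31. The basal markers KRT5, KRT14 and KRT15 stayed between 5.27 and 20.1 after miR-99a and between 7.19 and 25.7 after si-GL2, all below the limit. Stromal markers were partly above it, and their signals summed over 5 genes to 499.7 after miR-99a and 429 after si-GL2. Leukocyte markers summed over 3 genes to 118 after miR-99a and 77.1 after si-GL2, of which only CD3E was expressed. CD3E was at 73.2 after miR-99a and 52.8 after si-GL2, and PTPRC at 39.5 after miR-99a and 22.5 after si-GL2. CD14 was near 0 at 5.65 after miR-99a and 1.82 after si-GL2. Endothelial markers summed over 4 genes to 239 after miR-99a and 234 after si-GL2, of which only PECAM1 was expressed. CDH5 was at 8.58 after miR-99a and 3.70 after si-GL2, VWF at 19.8 after miR-99a and 44.0 after si-GL2, and KDR at 16.4 after miR-99a and 19.3 after si-GL2. The part of any of these in the results below was not tested.

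KBTBD2 and KBTBD8 were lower after miR-99a, and ENC1 was higher. KBTBD2 signal after miR-99a was 37.4% of the si-GL2 value for the brightest probe set, KBTBD8 signal was 52.4% by its sole probe set, and ENC1 signal was 2.09-fold that of the control. The other 5 genes stayed within 1.5-fold, and KBTBD7 was the farthest of them from the control. By brightest probe sets, all 7 KBTBD genes lay below 0, where 56.3% of all expressed genes and 86.7% of the other expressed BTB-Kelch genes did. KBTBD4 was at only -0.02, however, and turned to 0.04 after quantile normalization of the arrays. In all, 2 of 8 genes were at least 1.5-fold lower, where 2.9% of all expressed genes were, and 1 of 8 was at least 1.5-fold higher, where 1.21% were. The rule that chose the genes drew on this contrast, so nothing is read from those counts.

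**Figure D1:**
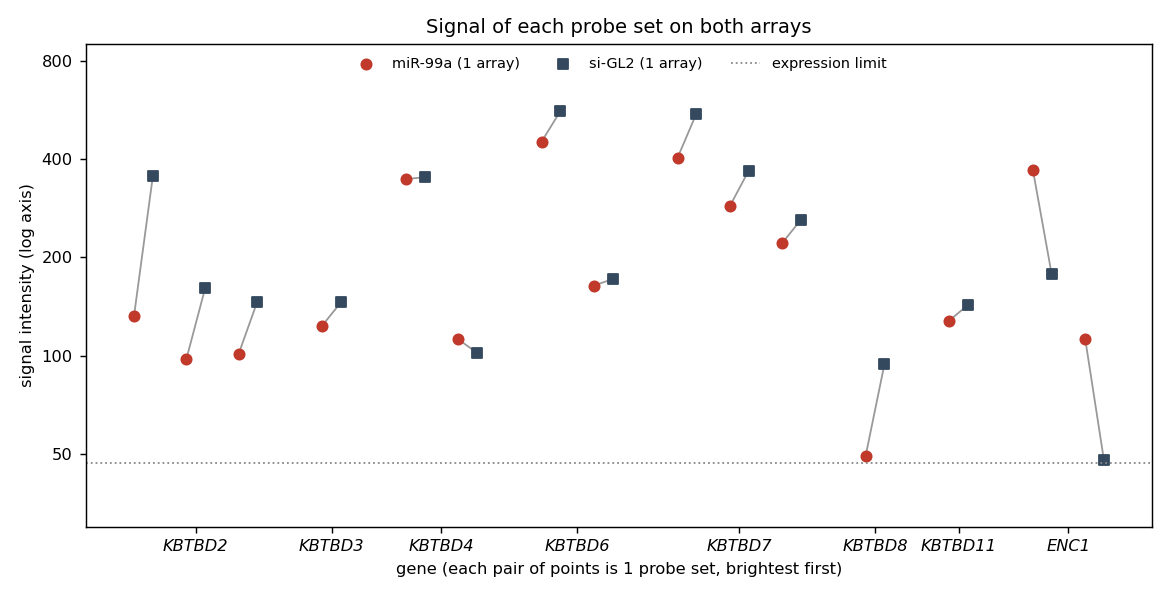
Signal intensity (log axis) of all 15 probe sets of the 8 genes, with the miR-99a array as red circles and the si-GL2 array as dark squares; each linked pair is 1 probe set, and the dotted line is the expression limit of 47.2. The red circle lies below its square in all 3 probe sets of KBTBD2 and in that of KBTBD8, and above it in both probe sets of ENC1; heights of different probe sets cannot be compared.

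Every one of the 15 probe sets had both signals above the expression limit, so none passed through 1 array alone. Signals ran from 48.0 to 561. At the level of probe sets, 12 of 15 were under 0, and 3 passed 1.5-fold downwards and 2 upwards. Of all 22401 expressed probe sets with 1 gene, 2.76% were lower by that size and 1.53% higher, and 54.0% lay below 0. Among the 12316 expressed probe sets within the range of mean level spanned by the 15, these shares were 3.39% lower and 1.63% higher. The median was -0.26 over the 8 genes, against -0.03 over all expressed genes.

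KBTBD2 is the adaptor that has been reported to bring CUL3 to p85α, the regulatory subunit of PI3 kinase encoded by PIK3R1, and mice without it are severely insulin resistant. Its brightest probe set read 132 after miR-99a and 354 after si-GL2 (-1.32). That value placed KBTBD2 as the 14th lowest of 12218 expressed genes. The second probe set read 97.5 after miR-99a and 161 after si-GL2 (-0.64). The dimmest read 101 after miR-99a and 147 after si-GL2 (-0.47), which did not reach 1.5-fold. All 3 differences were thus below 0, but by unequal amounts, and the brightest stood well apart from the other two. Both weaker probe sets carry the marks _x_ or _s_, which the manufacturer gives to designs that may bind related sequences or several transcripts. The range of 0.84 between the KBTBD2 probe sets was wide: the median range among the 1549 genes with 3 expressed probe sets was 0.25, and 2.19% of them had a range at least as wide. The mean over the probe sets of KBTBD2 was -0.81. At least 2 probe sets past 1.5-fold in the lower direction were found in 1.3% of the 5842 genes with 2 or more expressed probe sets.

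PIK3R1, the reported substrate of KBTBD2, did not reach 1.5-fold in mRNA, with a signal in miR-99a cells of 472 and in si-GL2 cells of 525 (-0.15) for the brightest probe set. Its other 2 probe sets were at -0.30 and -0.20. The arrays measure messages, and p85α protein was not measured. By the pair of log2 values on the 2 arrays, the expressed genes nearest to KBTBD2 were DNAJB4, SORBS2 and TENT5C. DNAJB4, a cytosolic chaperone of the DNAJ class, was at a distance of 0.01 log2 units, with 133 after miR-99a and 356 after si-GL2. SORBS2, an adaptor protein of the actin cytoskeleton, lay at a distance of 0.09, with 142 after miR-99a and 348 after si-GL2. TENT5C, a poly(A) polymerase, lay at 0.20, with 149 after miR-99a and 324 after si-GL2. Likeness over 2 arrays means only a similar level and difference. For SORBS2 the match held for the brightest of 10 probe sets, whose mean difference was -0.38, while the means of DNAJB4 and TENT5C were -1.23 and -0.79.

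KBTBD8 pairs with CUL3 to mark NOLC1 and TCOF1, a pair of ribosome biogenesis factors, a step described in neural crest formation in frog embryos and human stem cells. Its transcript is also counted among the predicted targets of the miR-99 and miR-100 family, which was not checked on sequence here. The sole probe set read 49.5 after miR-99a and 94.4 after si-GL2 (-0.75). KBTBD8 was the 140th lowest of the expressed genes. Its miR-99a signal lay just above the limit of 47.2, and with a pseudocount of 64 its difference shrank to -0.48, short of 1.5-fold. A second probe set to check it against was not analysed here. The messages of its reported substrates were above 0, and their proteins were not measured. NOLC1 read 3245 after miR-99a and 2759 after si-GL2 (0.23), with its 2 other probe sets at 0.33 and 0.44, and TCOF1 read 311 after miR-99a and 298 after si-GL2 (0.06), with 0.20 and 0.32 for the dimmer probe sets. None of these values reached 1.5-fold, and the 0.06 of TCOF1 lay within the probe set SD of 0.18.

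KBTBD6 and KBTBD7 are close paralogs that act together with CUL3 on the Rac activator TIAM1, helped by binding to GABARAP proteins. They are next to each other among the protein-coding genes of chromosome 13. All 3 probe sets of KBTBD7 had differences below 0. The brightest read 404 after miR-99a and 550 after si-GL2 (-0.43). The second read 287 after miR-99a and 368 after si-GL2 (-0.34), and the dimmest 221 after miR-99a and 261 after si-GL2 (-0.22). The range over these probe sets was 0.21, close to the median of 0.25 for genes with 3 expressed probe sets, and KBTBD7 was the 791st lowest of the expressed genes. KBTBD6 lay nearer to 0. Its brightest probe set read 453 after miR-99a and 561 after si-GL2 (-0.30), and its second, with 164 after miR-99a and 172 after si-GL2 (-0.06), lay within the spread between probe sets. Neither paralog reached 1.5-fold by any of their 5 probe sets. TIAM1 did not reach the expression limit, with 24.7 after miR-99a and 17.9 after si-GL2. NF1, whose product neurofibromin is a reported substrate of KBTBD7, was dim, with 45.2 after miR-99a and 66.2 after si-GL2 (-0.43). The GABARAP genes differed little: GABARAP was at 0.02, GABARAPL1 at 0.04 and GABARAPL2 at -0.11.

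KBTBD4 directs CUL3 to the CoREST complex in cells, and altered forms of it occur in medulloblastoma. The brightest probe set read 347 after miR-99a and 352 after si-GL2 (-0.02), and the second 112 after miR-99a and 102 after si-GL2 (0.12). The 2 probe sets, both _s_ designs, disagreed in sign, and both values lay within the probe set SD of 0.18. A further probe set, which the annotation gives to both KBTBD4 and its neighbour PTPMT1 and which the rule therefore left out, read 457 after miR-99a and 444 after si-GL2 (0.04). CoREST genes were also near 0. RCOR1, the scaffold, was at -0.12, the demethylase KDM1A at 0.15, and the deacetylases HDAC1 and HDAC2 at -0.02 and -0.06.

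KBTBD3 and KBTBD11 were each measured by 1 probe set. KBTBD3, a less studied relative, read 124 after miR-99a and 146 after si-GL2 (-0.21). KBTBD11, reported in mouse osteoclasts to bring CUL3 to the transcription factor NFATc1, read 128 after miR-99a and 143 after si-GL2 (-0.14). Both sat well inside the bulk of the expressed genes, with 21.8% of these at or below KBTBD3 and 30.5% at or below KBTBD11. NFATC1 read 96.7 after miR-99a and 99.7 after si-GL2 (-0.04) by the brightest of 5 probe sets, which disagreed. The other expressed ones were at -0.13 and 0.47. Those below the expression limit were at -0.61, past 1.5-fold, and 0.18.

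ENC1 encodes an actin-binding Kelch protein first described in the developing nervous system, which has been reported to lower NRF2 protein and to bind p62 and the retinoblastoma protein. Its difference had the opposite direction to those of KBTBD2 and KBTBD8. The brightest probe set read 371 after miR-99a and 178 after si-GL2 (0.998), and the second read 113 after miR-99a and 48.0 after si-GL2 (1.01). The second probe set is an _s_ design, and its signal after si-GL2 lay just above the expression limit. The 2 probe sets differed by 0.01, against a median of 0.16 among the 3231 genes with 2 expressed probe sets. ENC1 was the 18th highest of the expressed genes. Of the 5842 genes with 2 or more expressed probe sets, 0.719% had at least 2 of them past 1.5-fold in the higher direction. NFE2L2, which encodes NRF2, was at -0.06, SQSTM1, which encodes p62, at 0.12, and RB1 at -0.28 by its brightest probe set and -0.44 by its second.

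**Figure D2:**
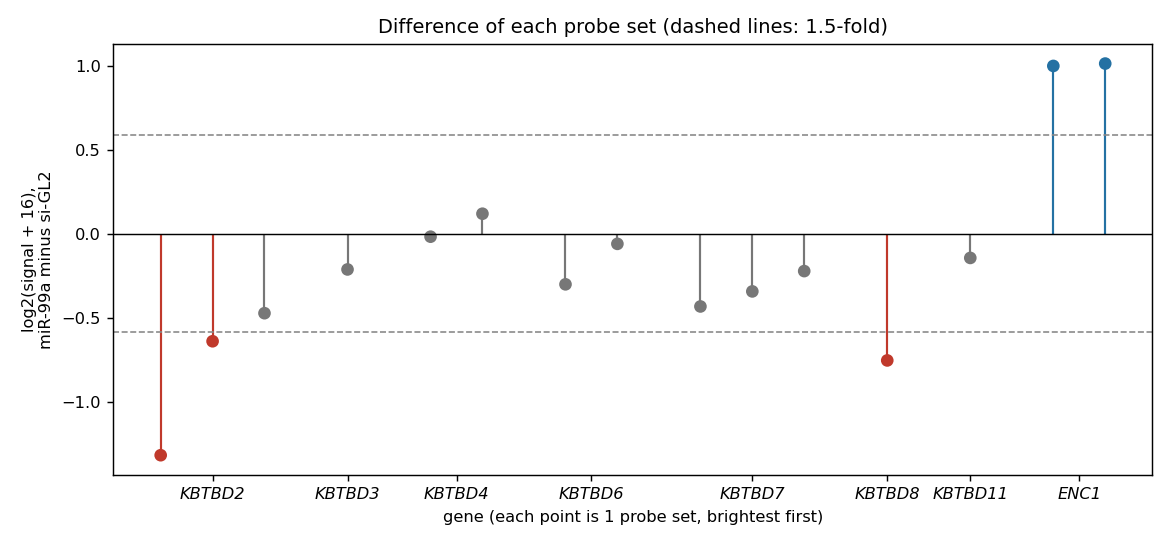
Difference of each of the 15 probe sets (vertical axis, log2(signal + 16), miR-99a minus si-GL2), grouped by gene with the brightest probe set first; dashed lines mark 1.5-fold. KBTBD2 runs between -1.32 and -0.47, the 3 probe sets of KBTBD7 between -0.43 and -0.22, and both probe sets of ENC1 lie close to 1.

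Set against all expressed genes, the 8 fell into 3 kinds. KBTBD2 and ENC1 lay at opposite edges of the distribution, with 0.115% of expressed genes at or below KBTBD2 and 0.147% at or above ENC1. KBTBD8 and KBTBD7 lay nearer the lower edge, with 1.15% and 6.47% at or below them. KBTBD6, KBTBD3, KBTBD11 and KBTBD4 lay in the body of the distribution, with between 13.6% and 52.7% at or below them. The SD of the difference over all expressed genes was 0.26.

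**Figure D3:**
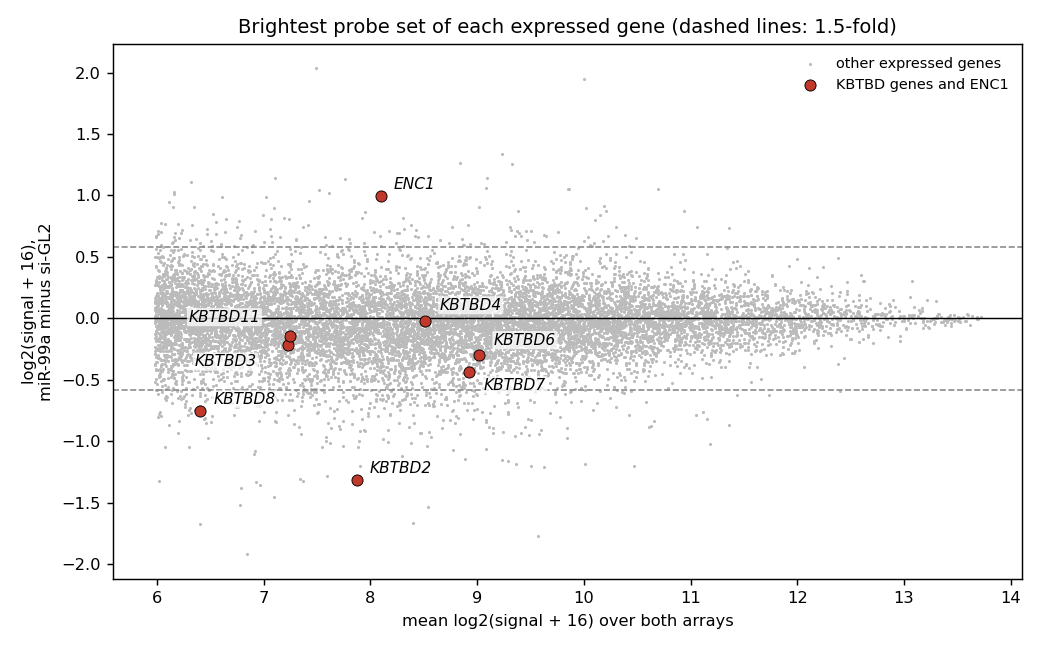
Difference (vertical axis, log2(signal + 16), miR-99a minus si-GL2) against mean level over both arrays (horizontal axis, log2) for the brightest probe set of 12218 expressed genes in grey, with the 8 genes in red and the 1.5-fold lines dashed. KBTBD2 at -1.32 and ENC1 at 0.998 lie outside the dense part of the grey cloud at their level, with a few other genes as far out, KBTBD8 at -0.75 stands at its lower margin among dim genes, and the others lie inside it.

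Most of the other BTB-Kelch genes, many of them named KLHL, had differences below 0 that did not reach 1.5-fold. Of 43 on the list 38 were analysed and 30 were expressed. Of those 30, 26 (86.7%) lay below 0, against 56.3% of all expressed genes, and the median was -0.19. After quantile normalization the count below 0 was 23 (76.7%, against 51.5% of all). As means over all probe sets of a gene it was 21, and the matching share of all expressed genes was not computed. Only KLHL28 was at least 1.5-fold lower by its brightest probe set (3.33% of the list, against 2.9% of all expressed genes). By that size 0 were higher. KLHL24 was at -0.06 by its brightest probe set, an _x_ design. Its other probe sets ran between -0.72 and -0.32, the lowest past 1.5-fold, and its mean over all 5 was -0.40.

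KLHL28 read 862 after miR-99a and 1398 after si-GL2 (-0.69). Its second probe set was at -0.79 and its dimmest at -0.16. KLHL2, an actin-binding protein that also recognises WNK kinases, was at -0.49, and KLHL36 at -0.47, with a second probe set at -0.77 and a dimmer one at 0.05. The highest were IVNS1ABP, KLHL41 and KLHL23. IVNS1ABP, an actin-stabilising Kelch protein known for binding an influenza protein, read 976 after miR-99a and 740 after si-GL2 (0.39), and its 4 probe sets lay between 0.23 and 0.39. KLHL41 was at 0.27, from dim signals of 56.9 in miR-99a cells and 44.3 in si-GL2 cells, and KLHL23 at 0.25. The highest value on that list, 0.39, was below the 0.998 of ENC1. KBTBD12, the remaining KBTBD gene analysed, was below the expression limit at 14.5 after miR-99a and 17.8 after si-GL2.

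Among the other BTB adaptors of CUL3, kept as a list apart from the BTB-Kelch genes, 21 of 22 analysed genes were expressed. Of these, 12 (57.1%) lay below 0, near the 56.3% of all expressed genes, and the median was -0.14. KCTD10, an adaptor for RhoB, was the lowest, with 219 after miR-99a and 458 after si-GL2 (-1.01), and its second probe set was at -1.26. ABTB1 was at -0.67 by its 1 expressed probe set, from dim signals of 53.3 in miR-99a cells and 94.3 in si-GL2 cells. Its 4 probe sets below the limit ran between -0.21 and 0.59, the highest past 1.5-fold from signals of 17.6 in miR-99a cells and 6.34 in si-GL2 cells, and its mean over all 5 was -0.08. BTBD3 was at -0.47. Thus 2 of 21 (9.52%) were at least 1.5-fold lower and 0 higher, against 2.9% and 1.21% of all expressed genes. SPOPL and SPOP stood at the other end. SPOP is an adaptor recurrently mutated in prostate cancer, and SPOPL is its paralog. SPOPL read 753 after miR-99a and 511 after si-GL2 (0.55), and its second probe set was past 1.5-fold at 0.77. SPOP was at 0.46 by its brightest probe set, but at 0.15 and 0.00 by the others, and RHOBTB1 was at 0.36.

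The CUL3 ligase core differed little. CUL3 read 1820 after miR-99a and 1928 after si-GL2 (-0.08), with a dimmer expressed probe set at -0.34, and RBX1 read 3381 after miR-99a and 3373 after si-GL2 (0.00). Of the 20 expressed genes for CUL3, RBX1, the NEDD8 cycle and the COP9 signalosome, 12 (60.0%) lay below 0, near the 56.3% of all expressed genes, 0 were past 1.5-fold in either direction, against 2.9% lower and 1.21% higher of all, and the median was -0.02. After quantile normalization 10 of 20 lay below 0, against 51.5% of all expressed genes. The lowest were the COP9 subunits COPS7A (-0.38), COPS5 (-0.17) and COPS4 (-0.13), and the highest COPS7B (0.33, with 0.01 by its second probe set), DCUN1D3 (0.27) and DCUN1D1 (0.19). The reported substrates and partners named above, 15 expressed of 16, had a median of -0.04. Of these 15, 9 (60.0%) lay below 0, near the 56.3% of all expressed genes. Among them 0 were past 1.5-fold, against 2.9% lower and 1.21% higher of all expressed genes.

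**Figure D4:**
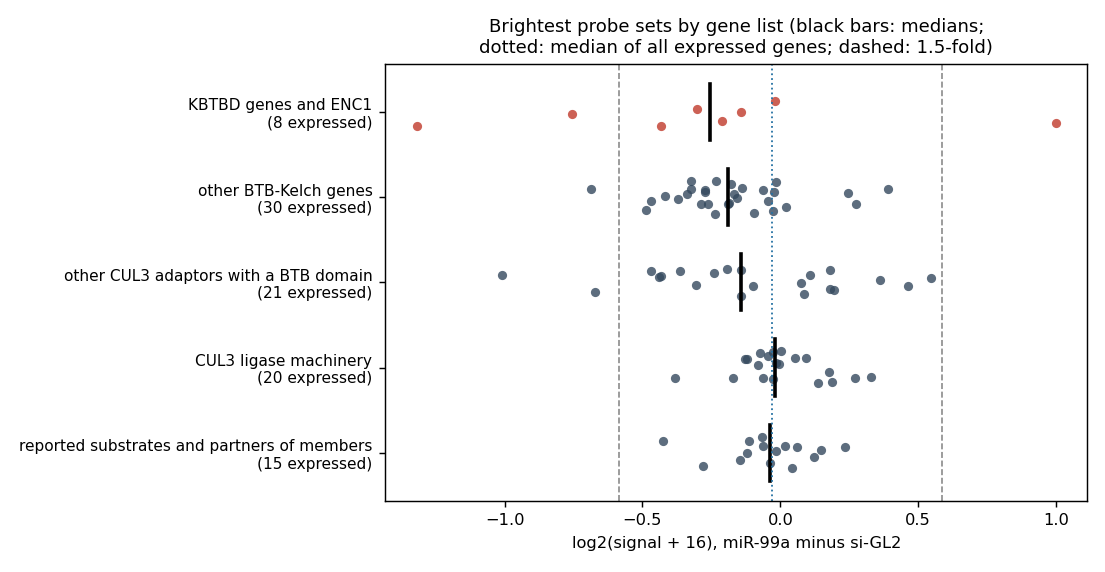
Differences (horizontal axis, log2(signal + 16), miR-99a minus si-GL2) of the brightest probe sets of expressed genes, 1 point a gene, for the 8 genes in red and 4 lists in dark grey; vertical spread within a row is only for legibility, black bars are medians, the dotted line is the median of all expressed genes and dashed lines mark 1.5-fold. Medians run from -0.26 for the 8 genes and -0.19 for other BTB-Kelch genes to -0.02 for the ligase core.

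The differences of the 8 genes were recomputed with other pseudocounts, scalings and probe set rules. ENC1 stayed between 0.85 and 1.06 and KBTBD2 between -1.41 and -0.81, past 1.5-fold under all 6 settings. Omission of _x_ and _s_ probe sets left both as reported, since their brightest probe sets carry no such mark. KBTBD8 stayed past 1.5-fold under 5 of 6. KBTBD3, KBTBD6, KBTBD7 and KBTBD11 remained below 0 and within 1.5-fold under all 6. KBTBD3, KBTBD8 and KBTBD11 have 1 probe set each, so means over probe sets and that omission could not change them. KBTBD4 changed sign under quantile normalization and under the mean over probe sets. It has only _s_ probe sets, so it had no value when these were omitted.

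**Figure D5:**
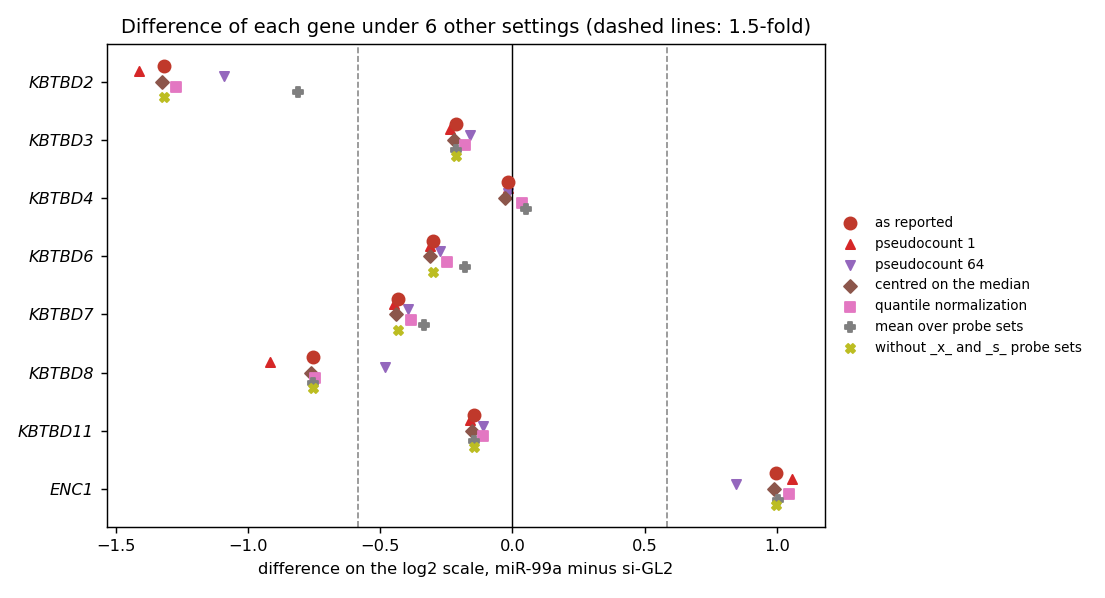
Difference of each gene (horizontal axis, log2 scale, miR-99a minus si-GL2) as reported, in large red circles, and under 6 other settings (5 for KBTBD4), in smaller symbols. Dashed lines mark 1.5-fold. KBTBD2 moves most, to -0.81 when its probe sets are averaged, and KBTBD8 crosses the 1.5-fold line with a pseudocount of 64, at -0.48.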

How the data were processed

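Total RNA was extracted with Trizol, labelled with biotin and hybridised to Affymetrix arrays, per the labels' protocols. The authors deposited 1 linear signal intensity per probe set and array. How probes were summarised and arrays scaled is not given in the sources used here, and no detection calls were used. The number of arrays, 1 per group, limits the precision.

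By the platform annotation, 41091 probe sets had 1 gene, 1801 several, 62 were controls and 11721 unnamed. Of those with 1 gene, 41037 were found by Entrez identifier in a RefSeq table of GRCh38.p14. Intensities were taken as log2(signal + 16) without rescaling, since array medians differed by 0.01. A gene was represented by its brightest probe set. Calls are 1.5-fold differences, with no test. Members and the 4 gene lists, written from memory, were chosen with earlier results of these data known. Named are all 8 members, CUL3, RBX1, all substrates and partners, and from each list the genes past 1.5-fold and the 3 highest and 3 lowest. KBTBD12 and KLHL24 are named in addition. The call rule was run on simulated data with a noise SD of 0.18, the spread between probe sets. That simulation held no spread between cultures, so it cannot show how the rule deals with such error. Alternatives were pseudocounts of 1 and 64, centring, quantile normalization, 2 other expression limits, means over probe sets, omission of _x_ and _s_ probe sets and a 2-fold rule. Of the listed genes, 7 were not analysed here. Python 3.11.15, numpy 2.4.6, pandas 2.3.3 and matplotlib 3.10.9 were used.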

Additional observations from a re-analysis of the deposited data

How the results depend on the processing

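With 1 array per group, no replicate could be left out and dim signals limit the smallest differences. No paired analysis was possible because the groups hold 1 array each. A value counts as moved when it shifts by more than the probe set SD of 0.18, and a count when it shifts by more than 1.5 times; 183 of 216 values under the 9 alternatives did not, and 0 called values turned sign. Part of the 216 values could not shift by construction, so the 183 overstates how stable the results are. Examples are medians under the 2-fold rule, and genes with 1 probe set under means over probe sets. The cause of the shifts was not tested, except that stricter rules leave fewer genes by construction. KBTBD2 was at -1.09 with a pseudocount of 64 and at -0.81 as a mean over probe sets, and KBTBD8 at -0.48 with a pseudocount of 64. Lower members numbered 1 in place of 2 genes, and 1 in place of 3 probe sets, with a pseudocount of 64, at the 75th percentile limit and by the 2-fold rule. Higher members numbered 0 in place of 1 gene by the 2-fold rule, and 1 in place of 2 probe sets by that rule, at the 75th percentile limit and without _x_ and _s_ probe sets. At that limit 5 of 8 genes were expressed. Of the other BTB-Kelch genes, 2 in place of 1 were lower with no expression limit, and 0 as means over probe sets and by the 2-fold rule. Of the other CUL3 adaptors, 1 in place of 2 was lower with a pseudocount of 64, at the 75th percentile limit, as means over probe sets, without _x_ and _s_ probe sets and by the 2-fold rule, and 1 in place of 0 was higher after quantile normalization and as means over probe sets. Over all expressed genes the counts of lower and higher were 354 and 148 as reported, 179 and 74 with a pseudocount of 64, 729 and 573 with no expression limit, 203 and 73 at the 75th percentile limit, 211 and 97 as means over probe sets, and 41 and 17 by the 2-fold rule. All list medians shifted by less than 0.18.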
